A study of Mus musculus with 12 samples.

Results

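The genes described here are 5 members of the mouse Cyp3a family (Cyp3a11, Cyp3a13, Cyp3a16, Cyp3a25 and Cyp3a44), the xenobiotic receptor genes Nr1i2 and Nr1i3, and Por. They are 8 of the 23284 genes in the deposited expression table, and all 8 passed the filter on low values. The Cyp3a genes were picked because several were lower on Western diet in these same libraries, so their diet differences are a description and carry no test. The receptors and Por were added for their known role and not for their values, and they are treated in the same way on diet.

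The data are 12 RNA-seq libraries of livers from mice kept for 22 weeks on 1 of 2 diets. Every mouse lacked both mouse apolipoprotein genes (Apoa1-/- Apoe-/-), the genotype abbreviated DKO, and mice called DKO/hA1 carried a human APOA1 transgene on that same background. The groups were DKO on chow (normal laboratory diet, n = 4), DKO on the high-fat Western diet (n = 3), DKO/hA1 on chow (n = 2) and DKO/hA1 on Western diet (n = 3). No library came from a mouse with intact Apoe and Apoa1, so chow values are those of knockout animals. The promoter that drives the transgene, and the sex and age of the mice, are not given in the sources used here. Expression is given as FPKM, a fragment count scaled to transcript length and to the mapped fragments of the library.

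CYP3A enzymes are haem-containing monooxygenases of the endoplasmic reticulum of hepatocytes and enterocytes, and they oxidise steroids, bile acids and a large share of drugs. Nr1i2 encodes PXR and Nr1i3 encodes CAR, nuclear receptors that bind DNA with RXR and switch on Cyp3a, Cyp2b and Cyp2c genes when steroids, bile acids or foreign chemicals are present. Por encodes cytochrome P450 oxidoreductase, the flavoprotein that passes electrons from NADPH to microsomal P450 enzymes.

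On the mm10 assembly, Cyp3a11, Cyp3a16, Cyp3a25 and Cyp3a44 lie in a cluster of 8 Cyp3a genes on chromosome 5 (chr5:145345149-146114978, 770 kb), together with Cyp3a41a, Cyp3a41b, Cyp3a57 and Cyp3a59. Cyp3a13 stands apart from them, 7.42 Mb away at chr5:137892933-137925610. Por lies on the same chromosome (chr5:135670040-135735326), Nr1i2 on chromosome 16 (chr16:38248349-38294849) and Nr1i3 on chromosome 1 (chr1:171213934-171218845). Coordinates are those of RefSeq on GRCm38.p6.

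The 250 bases upstream of the transcript start given in a RefSeq-derived promoter table are shown for the 5 Cyp3a genes, because these genes differed from one another in their diet values although they are close relatives. Each is written 5′ to 3′ on the strand of the gene, which is the minus strand for all 5. Capitals mark AGNTCA on either strand, the letters of a nuclear receptor half-site, where N is any base. The letters were chosen after the sequences had been read.
Cyp3a11: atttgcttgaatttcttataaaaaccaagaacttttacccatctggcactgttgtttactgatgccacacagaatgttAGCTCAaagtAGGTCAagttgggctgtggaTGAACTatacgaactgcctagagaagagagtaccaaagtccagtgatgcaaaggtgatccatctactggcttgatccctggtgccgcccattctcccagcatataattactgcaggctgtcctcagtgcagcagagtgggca
Cyp3a16: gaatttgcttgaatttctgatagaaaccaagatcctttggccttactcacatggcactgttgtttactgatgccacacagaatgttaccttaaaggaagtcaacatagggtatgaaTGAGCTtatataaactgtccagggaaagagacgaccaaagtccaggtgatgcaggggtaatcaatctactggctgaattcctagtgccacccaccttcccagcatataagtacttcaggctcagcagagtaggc
Cyp3a44: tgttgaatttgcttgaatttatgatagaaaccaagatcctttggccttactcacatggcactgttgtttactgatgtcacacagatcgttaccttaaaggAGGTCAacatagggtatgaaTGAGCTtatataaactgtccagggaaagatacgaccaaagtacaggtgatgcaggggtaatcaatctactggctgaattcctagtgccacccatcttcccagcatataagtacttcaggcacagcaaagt
Cyp3a25: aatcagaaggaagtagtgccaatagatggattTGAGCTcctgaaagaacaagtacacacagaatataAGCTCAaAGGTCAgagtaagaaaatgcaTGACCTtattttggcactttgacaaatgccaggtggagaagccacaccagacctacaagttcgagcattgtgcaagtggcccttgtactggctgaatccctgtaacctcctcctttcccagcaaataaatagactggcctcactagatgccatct
Cyp3a13: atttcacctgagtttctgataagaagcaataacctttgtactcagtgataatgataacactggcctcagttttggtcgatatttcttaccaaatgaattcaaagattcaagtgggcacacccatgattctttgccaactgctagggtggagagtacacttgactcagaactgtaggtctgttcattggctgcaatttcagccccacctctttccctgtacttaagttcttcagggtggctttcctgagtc
They cover chr5:145879855-145880104 (Cyp3a11), chr5:145469724-145469973 (Cyp3a16), chr5:145805875-145806124 (Cyp3a44), chr5:146009619-146009868 (Cyp3a25) and chr5:137921620-137921869 (Cyp3a13), all on GRCm38.p6. The Cyp3a13 window lies inside the RefSeq locus of that gene, which extends farther upstream. It ends next to the start of the GENCODE transcript (5′ end at base 137921619), so it is the upstream sequence of that transcript and not of the whole locus.

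The upstream windows of Cyp3a16 and Cyp3a44 were 92.9% identical in a global alignment, and that of Cyp3a11 was 76.2% identical to Cyp3a16 and 71.7% to Cyp3a44. Against Cyp3a11, the window of Cyp3a25 was 52.7% identical and that of Cyp3a13 53.5%. In the Cyp3a11 window, 2 half-sites stood in a direct repeat with 4 bases between them (AGCTCAAAGTAGGTCA, first base at -172 from the start). The pattern AGNTCANNNNAGNTCA was present on either strand in 0.125% of 32851 RefSeq promoter windows of 300 bases, 250 before and 50 after the start. The Cyp3a25 window held a direct repeat with 1 base between the half-sites (AGCTCAAAGGTCA, first base at -183), a pattern, AGNTCANAGNTCA, found in 0.219% of the windows. The same repeat stood upstream of Cyp3a57 (first base at -181) and Cyp3a59 (first base at -184). Cyp3a16 and Cyp3a44 held TGAGCT at -134 and -130, and Cyp3a44 also AGGTCA at -150, where Cyp3a16 has no such match. In Cyp3a13 the only match, AGCTCA, began at base 24 after the start, outside the sequence shown. A single AGNTCA was present in 46.6% of all windows, so 1 match is common. Among the other genes described, Nr1i3 held AGCTCA at -160, and Nr1i2 and Por held no AGNTCA in their windows. These matches describe letters and were not tested as binding sites. Other arrangements were also searched for and found in none of the Cyp3a genes, Nr1i2, Nr1i3 or Por. A direct repeat with 3 bases between the half-sites was present in 0.07% of all windows. Half-sites on opposite strands, pointing away from each other with 6 bases between them, were present in 0.0304%.

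Before the members are described, some facts bear on all of them. Library totals were 379689 to 578927 FPKM, and 10298 to 11005 genes reached 1 FPKM. Apoa1 stood at 30.4 to 77.4 FPKM in the 7 DKO libraries and 122 to 239.8 in the 5 DKO/hA1 libraries. Apoe stood at 12.9 to 89.8 FPKM in all 12. Which exons the deletions remove is not given in the sources used here, so these levels do not check the knockouts. Mean levels of 13 hepatocyte markers were close to each other in all 12 libraries (9.3 to 9.79, log2 of scaled FPKM + 1). Y-linked Ddx3y was present at 10.5 to 16.7 FPKM in every library, and Xist did not exceed 0.293 FPKM. DKO chow replicate 4 stood apart in intestinal markers, whose 7 genes summed to 215.6 FPKM there against 19.6 to 148.8 elsewhere, with Vil1 at 10.4 and Krt20 at 14.1 FPKM. In 2 Western diet libraries, DKO replicate 2 and DKO/hA1 replicate 3, acute phase transcripts were highest.

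Cyp3a11, the most abundant Cyp3a transcript of these livers on chow and a classical target of PXR, was the gene with the largest fitted decrease on Western diet in DKO mice among 11548 genes. In DKO chow it stood at 1320, 1058, 1154 and 1802 FPKM, and in DKO Western at 113, 3.497 and 90.7 FPKM. In DKO/hA1 chow it stood at 1223 and 921.5 FPKM, and in DKO/hA1 Western at 321.9, 201.1 and 45.5 FPKM. Every Western diet library lay below every chow library, and the lowest value belonged to DKO Western replicate 2. The fitted difference of Western diet from chow was -5.25 ± 1.03 (log2 of scaled FPKM + 1, SE) in DKO mice and -2.87 ± 1.23 in DKO/hA1 mice, where it ranked 5 among all genes. Without DKO Western replicate 2 the first of these was -3.75.

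The group means, in order, were 1333 ± 330.5 FPKM (SD, n = 4) in DKO chow, 1072 ± 213.2 (n = 2) in DKO/hA1 chow, 189.5 ± 138.5 (n = 3) in DKO/hA1 Western and 69.1 ± 57.9 (n = 3) in DKO Western. Both chow groups overlapped, both Western groups overlapped, and the gap lay between the diets. On chow the 6 libraries spanned 1.96-fold from lowest to highest, and on Western diet the 6 libraries spanned 92.1-fold. In bulk RNA, fewer cells of a type and less RNA per cell cannot be told apart for 1 gene alone. The 13 hepatocyte markers had a median diet difference of -0.04 in DKO and -0.18 in DKO/hA1 mice. The part of hepatocyte share in the Cyp3a11 values was not tested.

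**Figure D1:**
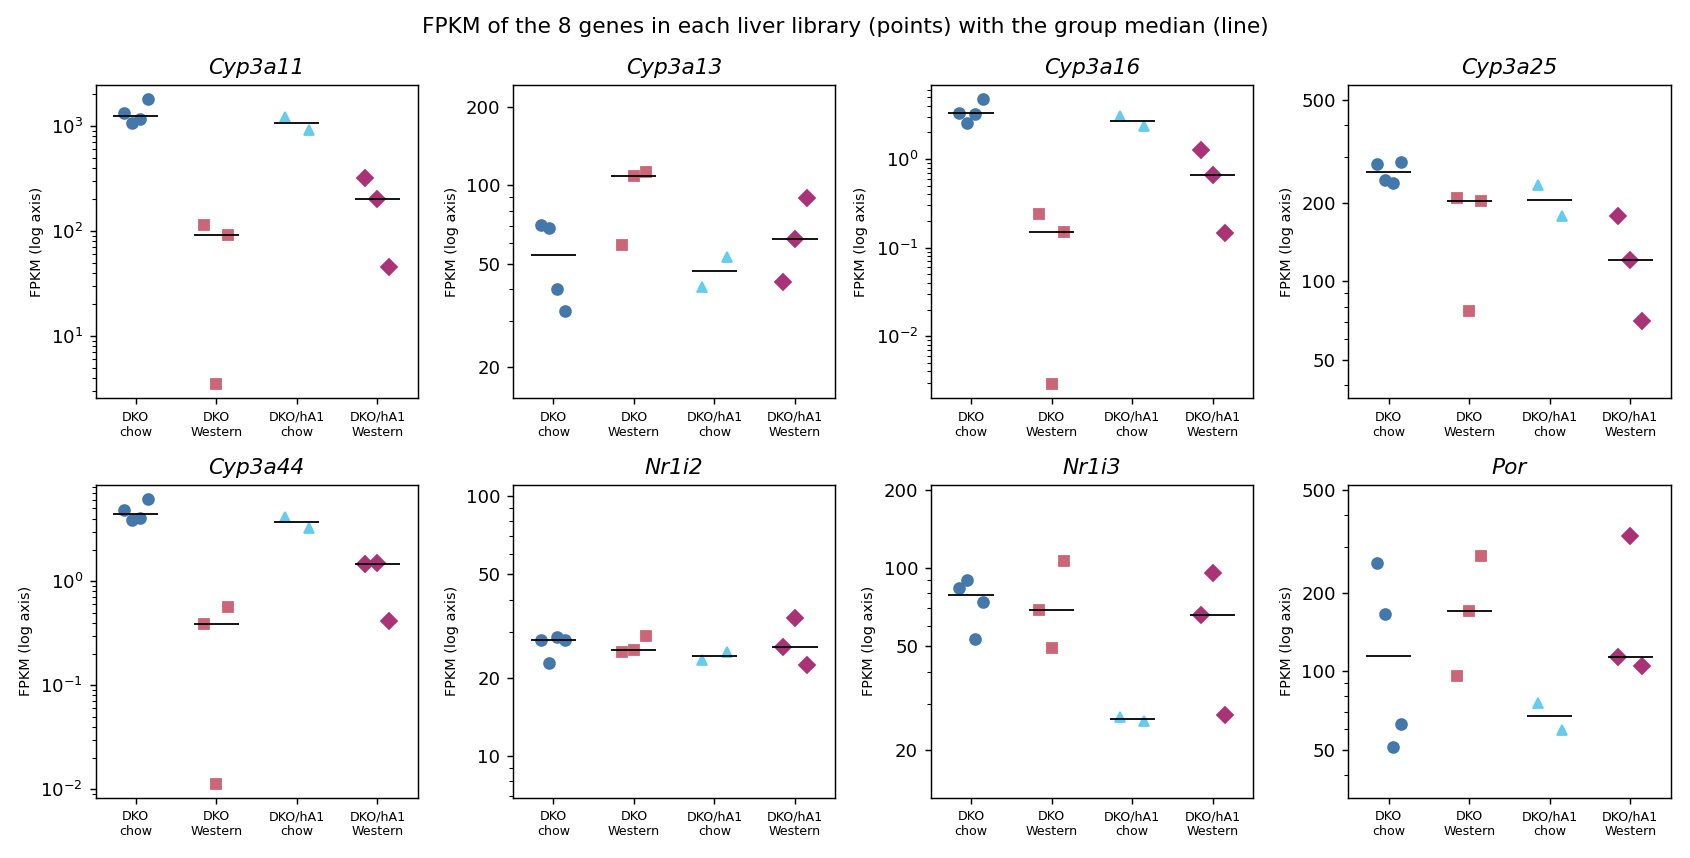
FPKM (log axis, scaled separately for each gene) of the 8 genes in each of the 12 liver libraries, with the group median as a line. Cyp3a11, Cyp3a16 and Cyp3a44 separate by diet with no overlap, whereas the 12 Nr1i2 points lie between 22.5 and 33.99 FPKM.

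Cyp3a16 and Cyp3a44, which in mouse liver are known as female-predominant or neonatal genes, were near the lower limit of the table. Their group means followed the order of the Cyp3a11 group means. Cyp3a16 stood at 3.33, 2.54, 3.22 and 4.74 FPKM in DKO chow and at 0.239, 0.0029 and 0.149 FPKM in DKO Western. With human APOA1 it stood at 3.03 and 2.35 FPKM on chow and at 1.26, 0.655 and 0.147 FPKM on Western diet. All 6 Western diet values lay below all 6 chow values, and DKO Western replicate 2 was again the lowest. Cyp3a44 stood at 4.78, 3.85, 4.08 and 6.18 FPKM in DKO chow and at 0.391, 0.0113 and 0.564 FPKM in DKO Western. The DKO/hA1 livers held 4.16 and 3.26 FPKM on chow and 1.45, 1.495 and 0.418 FPKM on Western diet. It too was without overlap between diets, and DKO Western replicate 2 was lowest once more.

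The fitted diet difference of Cyp3a16 was -1.99 ± 0.22 in DKO and -1.18 ± 0.26 in DKO/hA1 mice, and that of Cyp3a44 was -2.15 ± 0.22 and -1.19 ± 0.27. Adding 1 before taking the logarithm compresses changes at these low levels. With 0.1 added instead, the differences were -4.13 and -2.13 for Cyp3a16 and -3.90 and -1.80 for Cyp3a44, in DKO and DKO/hA1 mice in turn. Cyp3a16 reached 1 FPKM in 7 libraries, 1 of them on Western diet, and Cyp3a44 in 8, 2 of them on Western diet.

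These low levels have a further limit, the likeness of the genes. The coding sequence of Cyp3a11 was 92.8% identical to that of Cyp3a16 and 94.9% to that of Cyp3a44, as the longest reading frames of the GENCODE transcripts give it. Of the 50-base stretches in transcripts, 10.5% in Cyp3a16, 18.2% in Cyp3a44 and 14.7% in Cyp3a11 occurred unchanged in another Cyp3a gene. How the authors' counting divided reads between such copies is not given in the sources used here. On chow, the level of Cyp3a16 was 0.24 to 0.279% of that of Cyp3a11 in the same library and Cyp3a44 was 0.34 to 0.364%, both nearly constant over 6 libraries. On Western diet the shares spread to 0.083 to 0.392% and 0.324 to 0.918%. Whether part of the Cyp3a16 and Cyp3a44 signal came from Cyp3a11 fragments was not tested.

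Cyp3a25, the second most abundant Cyp3a transcript on chow, was lower on Western diet by less. It stood at 283, 246.1, 238.8 and 286.9 FPKM in DKO chow and at 210.2, 76.7 and 204.1 FPKM in DKO Western. In DKO/hA1 mice it stood at 234 and 178.3 FPKM on chow and at 178.8, 121.1 and 70.7 FPKM on Western diet. The DKO groups did not overlap, while in DKO/hA1 mice 1 Western library (178.8) lay just above the lower chow library (178.3). In scaled FPKM these libraries stood at 176.6 and 180.5, and the DKO/hA1 groups did not overlap. The fitted diet difference was -0.89 ± 0.36 in DKO and -0.82 ± 0.43 in DKO/hA1 mice. It was -0.42 in DKO mice without DKO Western replicate 2 and -0.48 in DKO/hA1 mice without DKO/hA1 Western replicate 3. Cyp3a25 shared 25.7% of its 50-base stretches with another Cyp3a gene, mainly Cyp3a59, to which its coding sequence was 97.5% identical.

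Cyp3a13, a Cyp3a gene best known from the intestine, was not lower on Western diet. It stood at 70.4, 68.5, 39.9 and 33.0 FPKM in DKO chow and at 58.7, 108.2 and 112.1 FPKM in DKO Western. The DKO/hA1 values were 40.7 and 53.1 FPKM on chow and 42.6, 62.1 and 89.3 FPKM on Western diet. The diets overlapped in both genotypes, and the fitted diet difference was 0.75 ± 0.35 in DKO and 0.41 ± 0.42 in DKO/hA1 mice. The DKO/hA1 value was 0.14 without DKO/hA1 Western replicate 3, 0.21 without DKO/hA1 chow replicate 1 and 0.68 without DKO/hA1 Western replicate 1. It was -0.11 with an index of clock genes as a covariate, so its sign depended on that setting. None of its 50-base stretches occurred in another Cyp3a transcript. Its lowest value came from DKO chow replicate 4, the library with the most intestinal marker RNA.

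The 4 Cyp3a genes outside the list ran with their closest relatives. Cyp3a59 stood at 21.6 to 28.7 FPKM in DKO chow, 6.597 to 18.6 in DKO Western. With human APOA1 it stood at 14.99 to 21.1 FPKM on chow and 6.30 to 14.3 on Western diet. Its share of the Cyp3a25 level was 8.41 to 10% on chow and 7.63 to 9.12% on Western diet. Cyp3a57 stood at 1.501 to 1.65 FPKM in DKO chow, above all other libraries, and at 0.371 to 0.728 in DKO/hA1 Western, below all DKO/hA1 chow libraries. Cyp3a41a and Cyp3a41b, whose coding sequences were 99.9% identical, did not follow Cyp3a11 in every library. In DKO/hA1 Western, Cyp3a41a stood at 3.92, 3.69 and 0.405 FPKM, so that 2 of 3 libraries were within its chow range of 2.98 to 6.03. In DKO Western it stood at 0.433, 0.0949 and 1.26 FPKM, all below that range.

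Summed over the 9 Cyp3a genes of the table, the level was 1180 to 2174 FPKM in the 6 chow libraries and 195.6 to 568.4 FPKM in the 6 Western diet libraries, without overlap. The make-up of the sum differed as well. Cyp3a11 gave 75.1 to 82.9% of it on chow, but 28.1, 1.79 and 21.1% in DKO Western and 56.6, 49.9 and 21.3% in DKO/hA1 Western. In DKO Western replicate 2, Cyp3a13 gave 55.3% and Cyp3a25 39.2%. The level of Cyp3a25 was 15.9 to 23.2% of that of Cyp3a11 on chow and 55.5 to 2190% on Western diet.

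**Figure D2:**
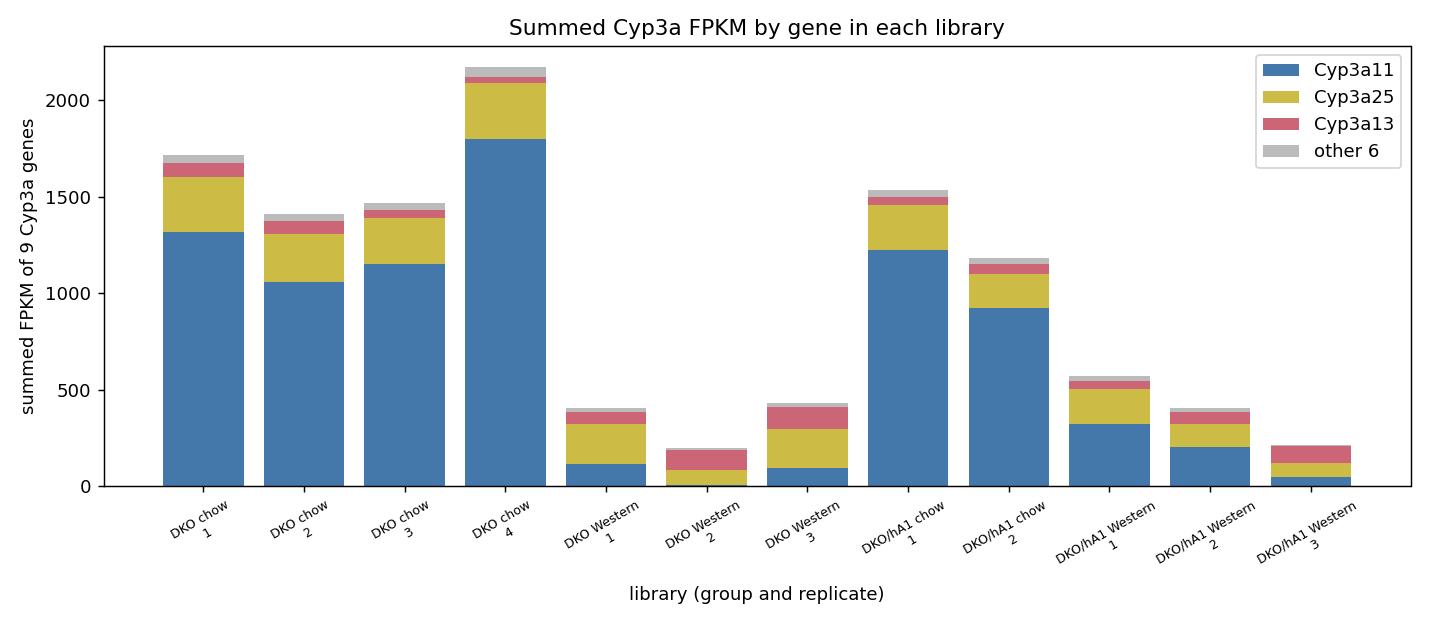
Summed FPKM of 9 Cyp3a genes in each library (bars from 0), divided into Cyp3a11, Cyp3a25, Cyp3a13 and the other 6. The 6 chow bars reach 1180 to 2174 FPKM and are mostly Cyp3a11, and the 6 Western diet bars reach 195.6 to 568.4 FPKM with a larger part from Cyp3a25 and Cyp3a13.

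Over the 8 genes, 3 had a fitted level at least 2-fold lower on Western diet in DKO mice, a size reached by 1.2% of the 11548 genes, and the same 3 (Cyp3a11, Cyp3a16 and Cyp3a44) did so in DKO/hA1 mice, against 1.41%. Nr1i3 and Por were at least 2-fold higher in DKO/hA1 mice, a size reached by 2.88% of genes. DKO mice had 4 of the 8 genes with every Western library below every chow library (Cyp3a11, Cyp3a16, Cyp3a25 and Cyp3a44), against 3.16% of genes. DKO/hA1 mice had 3, against 14.7%, counted like all overlaps here on unscaled FPKM. Nr1i3 and Por were without overlap in the higher direction, as for 15.6% of genes. All 6 Western diet libraries lay below all 6 chow libraries for these 3 genes, as for 0.598% of all genes. The genes were chosen on this contrast, so nothing is read from these counts. The diet comparisons of the 2 genotypes share no library.

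Of the receptor genes, Nr1i2 showed no such split, and Nr1i3 was without overlap between diets in DKO/hA1 mice only, in the higher direction. Nr1i2 (PXR) stood at 22.8 to 28.7 FPKM in the 4 DKO chow libraries, with a median of 27.97, and at 25.04, 25.6 and 28.97 FPKM in DKO Western. Its values with human APOA1 were 23.4 and 25.1 FPKM on chow and 26.3, 33.99 and 22.5 FPKM on Western diet. Every pair of groups compared overlapped, and the full range over 12 libraries was 1.51-fold, the narrowest of the 8 genes. The fitted diet difference was -0.08 ± 0.13 in DKO and 0.16 ± 0.16 in DKO/hA1 mice, with 95% intervals from -0.37 to 0.21 and from -0.18 to 0.51. With each library left out in turn these differences ran from -0.14 to -0.04 and from 0.005 to 0.29, the lowest DKO/hA1 value being that without DKO/hA1 Western replicate 2.

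Nr1i3 (CAR) stood at 83.9, 90.5, 53.6 and 74.2 FPKM in DKO chow and at 69.3, 49.5 and 106.3 FPKM in DKO Western. In DKO/hA1 mice it stood at 26.8 and 25.8 FPKM on chow and at 66.3, 95.9 and 27.2 FPKM on Western diet. The DKO/hA1 chow libraries were the lowest of all 12, with DKO/hA1 Western replicate 3 just above them. The fitted diet difference was -0.12 ± 0.38 in DKO mice and 1.06 ± 0.46 in DKO/hA1 mice. Leaving out DKO/hA1 Western replicate 2 or 3 gave 0.67 or 1.56 for the latter. The DKO difference had no stable sign, at 0.13 without DKO Western replicate 2, -0.40 without DKO Western replicate 3, -0.28 without DKO chow replicate 3, and -0.07 and -0.005 without DKO chow replicates 1 and 2.

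Por stood at 260.6, 165.7, 51.4 and 62.9 FPKM in DKO chow and at 96.1, 170.9 and 276.9 FPKM in DKO Western. With human APOA1 it stood at 75.2 and 59.5 FPKM on chow and at 113.4, 331.5 and 104.7 FPKM on Western diet. The 4 lowest values were DKO chow replicates 3 and 4 and both DKO/hA1 chow libraries, and the spread within DKO chow alone was 5.07-fold. The fitted diet difference was 0.53 ± 0.62 in DKO and 1.23 ± 0.74 in DKO/hA1 mice. Among DKO mice, leaving out chow replicate 3 or 4 gave 0.17 or 0.27 and leaving out Western replicate 3 gave 0.17, whereas leaving out replicate 1 gave 0.94 (chow) or 0.925 (Western). The DKO/hA1 value was 0.695 without DKO/hA1 Western replicate 2.

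**Figure D3:**
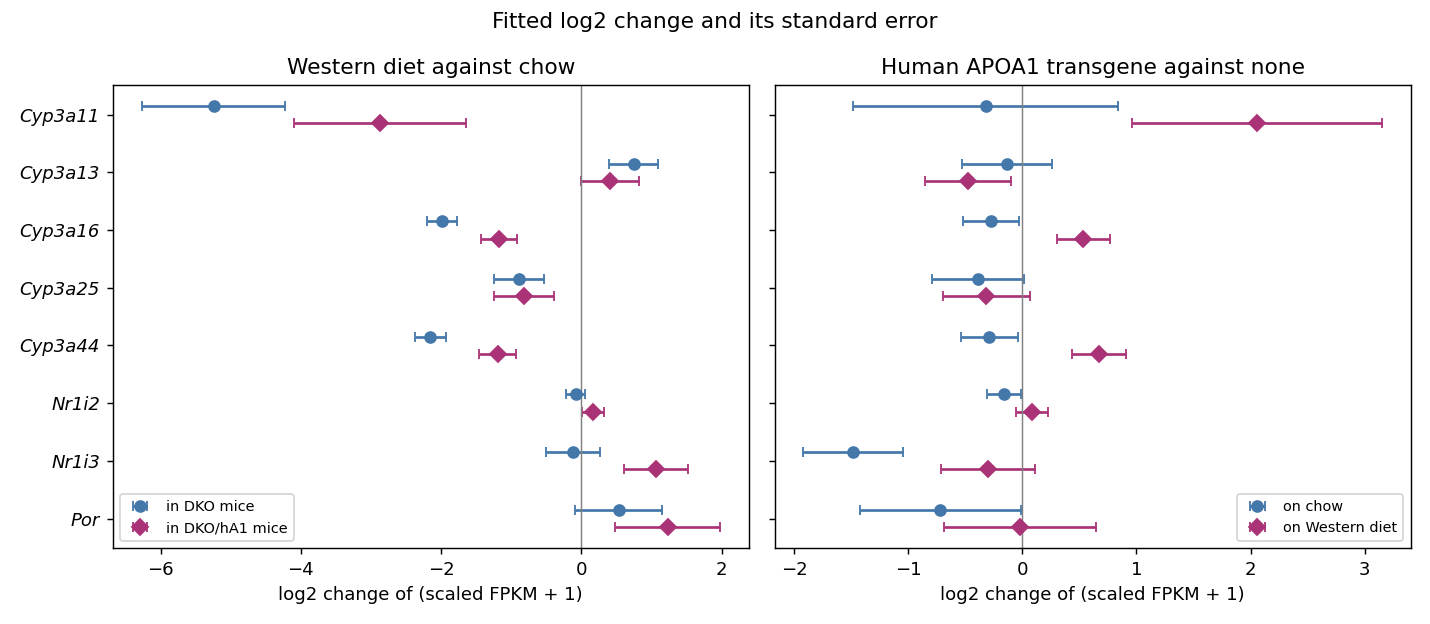
Fitted log2 differences of scaled FPKM + 1 with their standard errors (bars) for the 8 genes, Western diet minus chow on the left and DKO/hA1 minus DKO on the right. Cyp3a11, Cyp3a16 and Cyp3a44 lie below 0 for diet in both genotypes, and on the right Nr1i3 on chow lies at -1.48.

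The comparison of DKO/hA1 with DKO mice addresses what human APOA1 changes in the liver, and it was not the contrast on which genes were chosen. The same libraries enter both contrasts, so for the Cyp3a genes it is not independent of the choice on diet. On chow, the fitted differences of all 8 genes were negative, with a median of -0.31 against 0.001 over all genes, but none of the 8 passed an adjusted p of 0.05 in limma. Genes passing in either direction made up 0.0779% of those tested. Nr1i3 alone among the 8 had an unadjusted p below 0.05, as did 7.43% of all genes, and limma without a variance trend also called none. Its difference was -1.48 ± 0.43, a level 2.8-fold lower, with a limma adjusted p of 0.399. The 2 DKO/hA1 libraries (26.8 and 25.8 FPKM) lay below all 4 DKO libraries (53.6 to 90.5 FPKM). Nr1i3 and Cyp3a25 were the 2 of 8 genes whose chow groups did not overlap, and 21.6% of all genes did not. Both DKO/hA1 chow libraries and DKO chow replicate 3 carry the same code number in their sample descriptions, whose meaning is not stated, so that the whole DKO/hA1 chow group has 1 code. The 3 other DKO chow libraries carry codes of their own. In DKO chow replicate 3 Nr1i3 stood at 53.6 FPKM, the lowest of its group, and with the code as a random block the difference was -1.21 (limma adjusted p = 0.239). Whatever the code stands for, it and the genotype cannot be fully told apart on chow. For Nr1i3 the adjusted p ranged from 0.0513 to 0.999 over the alternatives tried, and the difference from -1.65 to -1.17.

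A neighbouring gene was lower together with Nr1i3 in DKO/hA1 chow, and the chow libraries also differed in an index of clock genes. Tomm40l, which encodes a mitochondrial outer membrane protein, overlaps Nr1i3 on the opposite strand, and whether strand was used in counting is not given in the sources used here. Tomm40l stood at 13.02 and 11.6 FPKM in DKO/hA1 chow and at 23.99 to 45.7 FPKM in DKO chow, and its fitted difference was -1.38 ± 0.38 (limma adjusted p = 0.362). Where the 2 genes overlap, their reads cannot be told apart without strand. How much such reads add to either value was not tested. A clock index, the mean log2 level of Arntl, Npas2, Clock and Cry1 minus that of Dbp, Tef, Per1, Per2 and Per3, stood at 0.536 and 0.97 for the DKO/hA1 chow libraries, against -3.06, -2.99, 1.2 and 0.919 for those of DKO chow. DKO chow replicates 3 and 4, whose index was near that of DKO/hA1 chow, had Nr1i3 at 53.6 and 74.2 FPKM. Replicates 1 and 2, whose index was negative, had 83.9 and 90.5 FPKM, the highest values of the group. With the index as a covariate, a choice made after seeing the data, the Nr1i3 difference was -1.17 (limma adjusted p = 0.859).

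Por values lined up with the clock index. The 4 lowest, 51.4 to 75.2 FPKM, came from the 4 libraries with a positive index, and the other 8 libraries, with an index from -3.06 to -1.16, had 96.1 to 331.5 FPKM. All 6 Western diet libraries had a negative index. With the index as a covariate, the Por diet difference in DKO/hA1 mice was -0.21 in place of 1.23, and in DKO mice 0.27 in place of 0.53. Time of death is not given in the sources used here, and its part in the Por and Nr1i3 values was not tested.

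**Figure D4:**
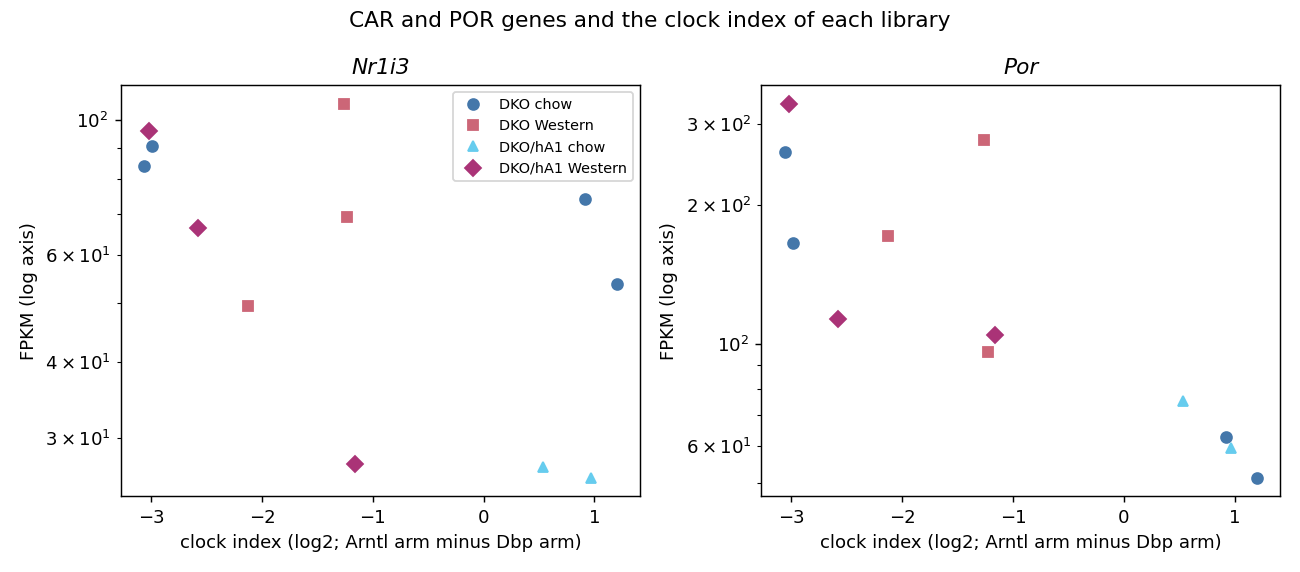
Nr1i3 and Por (FPKM, log axis) against the clock index of each library (log2, Arntl arm minus Dbp arm). The 4 libraries with a positive index are the 4 lowest in Por, and the DKO/hA1 chow libraries are the lowest of all in Nr1i3.

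On Western diet, none of the 8 genes passed between DKO/hA1 and DKO mice, and 0% of the 11548 genes did. Cyp3a44 and Cyp3a16 had an unadjusted p below 0.05, as did 5.85% of all genes, and limma without a variance trend called none of the 8. In DKO Western these 2 genes did not exceed 0.564 and 0.239 FPKM, and such low Western diet values entered the choice of genes. Nothing is therefore read from their unadjusted p-values. The fitted difference was 0.67 ± 0.24 for Cyp3a44 (limma adjusted p = 0.779) and 0.53 ± 0.23 for Cyp3a16 (limma adjusted p = 0.85), both higher in DKO/hA1. The latter was 0.30 without DKO/hA1 Western replicate 1. For Cyp3a11 it was 2.05 ± 1.10, with a 95% interval from -0.39 to 4.49 and a limma adjusted p of 0.922. Without DKO Western replicate 2 it was 0.53. None of the 8 genes was without overlap between the 2 groups, against 9.54% of all genes. The replicates numbered 1 of both groups also share a code number, and Cyp3a11 stood at 113 FPKM in the DKO library of that pair and 321.9 in the DKO/hA1 library.

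Averaged over diets, 0 of the 8 genes passed in limma with or without a variance trend, against 0.113% of all genes. The Nr1i3 difference was -0.89 ± 0.30 (limma adjusted p = 0.469), the only 1 of the 8 with an unadjusted p below 0.05, as for 7.92% of all genes. The interaction, the diet difference with human APOA1 minus that without, was called for 0 of the 8 genes by both limma fits and for 0.0173% of all genes. It was 0.96 ± 0.35 for Cyp3a44 and 0.81 ± 0.34 for Cyp3a16, each with a limma adjusted p of 0.966. Both had an unadjusted p below 0.05, as did 4.9% of all genes. Nothing is read from these p-values, since the genes were chosen on the diet differences that make up the interaction. For Cyp3a11 it was 2.37 ± 1.60 (95% interval -1.18 to 5.93), and 0.85 without DKO Western replicate 2. The difference in diet response between the genotypes was within the spread between libraries for Cyp3a11, and its interval covers both a smaller and a larger response with APOA1.

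Among Western diet libraries the Cyp3a11 values, but not those of every Cyp3a gene, ran in reverse order to acute phase transcripts. The mean level of 20 acute phase genes (log2 of scaled FPKM + 1) was 9.06, 10.98 and 10.28 in DKO Western replicates 1 to 3 and 7.76, 8.3 and 10.9 in DKO/hA1 Western replicates 1 to 3. It was 6.81 to 7.93 in the 6 chow libraries. In the 6 Western libraries, Cyp3a11 and the acute phase mean stood in exactly reversed order, from 321.9 FPKM at 7.76 to 3.497 FPKM at 10.98. Cyp3a16 stood in the same reversed order in unscaled FPKM, from 1.26 to 0.0029. That order rested on near-equal values in DKO Western replicate 3 (0.149 FPKM) and DKO/hA1 Western replicate 3 (0.147 FPKM). In scaled FPKM they were 0.143 and 0.149, and the order was not kept. Cyp3a25 and Cyp3a44 did not keep the reversed order. By rising acute phase mean, Cyp3a25 stood at 178.8, 121.1, 210.2, 204.1, 70.7 and 76.7 FPKM and Cyp3a44 at 1.45, 1.495, 0.391, 0.564, 0.418 and 0.0113 FPKM. Cyp3a13 was highest, at 89.3 to 112.1 FPKM, in the 3 libraries above 10. The Western diet library with the lowest acute phase mean, DKO/hA1 replicate 1, lay within the chow range of that mean. Its Cyp3a11 level, 321.9 FPKM, was below all chow libraries. How acute phase levels bear on the Cyp3a values was not tested.

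Of the 20 acute phase genes, 6 were called higher on Western diet averaged over genotypes, with a median difference of 1.58 against -0.003 over all genes, 2.9% of which were called higher. Neutrophil markers were highest in the same libraries as acute phase transcripts, though none of the 7 tested was called on diet in either genotype or averaged. The 8 markers in the table summed to 941.4 FPKM in DKO Western replicate 2 and 870.1 in DKO/hA1 Western replicate 3, 16.5 to 220.8 FPKM in the other 4 Western libraries and 12.3 to 29.2 FPKM on chow, and all 8 were above 0 in every Western library. Of 12 macrophage markers, 8 were called higher in the averaged comparison, 8 in DKO/hA1 mice (against 1.12% of all genes) and none in DKO mice. Their sums were 1012 to 1342 FPKM in DKO Western, 1501 to 2292 in DKO/hA1 Western and 242.5 to 742.6 on chow, with all 12 above 0 in each library.

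Without the 2 libraries highest in acute phase genes, left out after seeing the data, the diet difference of Cyp3a11 was -3.76 in DKO and -2.07 in DKO/hA1 mice. That of Cyp3a16 was -1.91 and -0.93, that of Cyp3a44 -1.98 and -0.93, and that of Cyp3a25 -0.42 and -0.48. Without DKO chow replicate 4, the library with intestinal marker RNA, the DKO values were -5.10 for Cyp3a11, -1.86 for Cyp3a16 and -2.04 for Cyp3a44. The male-biased liver genes fixed for comparison all had negative averaged diet differences (11 of 11, median -1.02), of which 1, Serpina1e, was called lower. Their mean level was uneven, at 7.76, 6.54 and 5.98 in DKO Western replicates 1 to 3. It was 7.97, 7.5 and 5.6 in DKO/hA1 Western replicates 1 to 3 and 7.7 to 8.24 in DKO chow. Of 4 female-biased genes tested in the averaged comparison, 2 were positive and 2 negative (median 0.007), and 0 were called. Of 9 periportal genes, 4 were called lower in that comparison (Cdh1, Hal, Gls2 and Cyp2f2), where 1.2% of all genes were called lower. Of 9 pericentral genes 1, Glul, was called higher, against 2.9% of all genes. The part of inflammation, immune cells, liver zonation and sex-biased expression in the Cyp3a values was not tested.

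**Figure D5:**
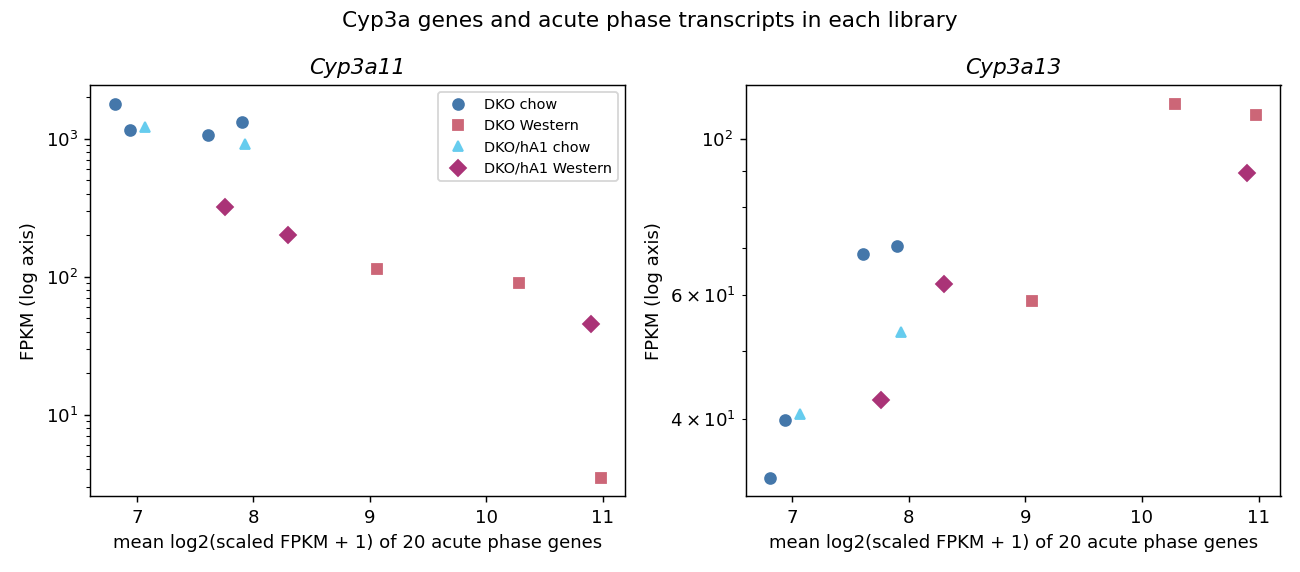
Cyp3a11 and Cyp3a13 (FPKM, log axis) against the mean level of 20 acute phase genes (log2 of scaled FPKM + 1) in each library. Over the 6 Western diet libraries Cyp3a11 runs from 321.9 FPKM at a mean of 7.76 to 3.497 FPKM at 10.98, and the 3 libraries with a mean above 10 have the highest Western diet values of Cyp3a13.

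Among other genes known to respond to PXR or CAR, more were lower than higher on Western diet, with some in each direction. Of 31 such genes, 30 were in the table and 28 could be tested. In DKO mice 2 of the 28 were called lower on Western diet and none higher, against 0.0606% of all genes lower, and the median difference was -0.48 against -0.004. In DKO/hA1 mice 2 were lower and none higher, against 0.312%, with a median of -0.23. Averaged over genotypes 7 were lower and none higher, against 1.2%, with a median of -0.26. Fitted differences were negative for 21 of the 28 in DKO mice, 16 in DKO/hA1 mice and 20 averaged over genotypes. An unadjusted limma p was below 0.05 for 10, 11 and 12 in turn, in either direction, against 11.8, 13.5 and 19.5% of all genes.

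The most significant was Ugt1a9, a glucuronosyltransferase gene, which fell in both genotypes. It stood at 24.7, 23.7, 25.8 and 23.1 FPKM in DKO chow and at 2.40, 4.05 and 6.10 FPKM in DKO Western. Its DKO/hA1 values were 38.3 and 47.4 FPKM on chow and 6.39, 10.1 and 9.33 FPKM on Western diet. No Western diet library reached any chow library, and the fitted differences were -2.41 ± 0.22 (limma adjusted p = 0.00115) and -2.20 ± 0.26 (limma adjusted p = 0.00608). Without DKO/hA1 chow replicate 2 the DKO/hA1 difference was -2.04 and did not pass (limma adjusted p = 0.125). Ugt1a genes share their last exons, so reads there may be divided between them.

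Slco1a4, an organic anion transporter gene and one of the genes nearest to Cyp3a44 in profile, stood at 14.7, 20.3, 6.35 and 11.03 FPKM in DKO chow and at 1.82, 0.765 and 1.501 FPKM in DKO Western. It fell by 2.55 ± 0.38 on the log2 scale in DKO mice (limma adjusted p = 0.0348). That call was lost in 8 of the 12 fits that left out 1 library, the exceptions being DKO chow replicate 3, DKO Western replicate 1 and DKO/hA1 Western replicates 1 and 3, with differences from -2.60 to -2.30 and limma adjusted p-values up to 0.18. In DKO/hA1 mice it stood at 10.99 and 8.44 FPKM on chow and 3.80, 3.34 and 1.04 FPKM on Western diet, a difference of -1.61 ± 0.46 that did not pass (limma adjusted p = 0.119). Cyp2c55, a P450 gene of another family, fell by 2.18 ± 0.29 in DKO/hA1 mice (limma adjusted p = 0.0103), from 5.82 and 5.54 FPKM on chow to 1.27, 0.154 and 0.240 FPKM on Western diet. Without DKO/hA1 chow replicate 2 that call was lost too (-2.20, limma adjusted p = 0.125). Its difference in DKO mice was -1.29 ± 0.24 (limma adjusted p = 0.101). That 1 genotype passed and the other did not does not by itself show a difference between them. The interaction had limma adjusted p = 0.966 for both genes. With groups of 2 to 4 libraries, that cannot show that there is no difference. For Cyp2c55 the unadjusted limma p of the interaction was below 0.05, as for 4.9% of all genes.

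Averaged over genotypes, Gsta2 (-2.16 ± 0.41) and Gsta1 (-1.78 ± 0.33), glutathione transferase genes that are close copies of each other, and Ces2a (-2.06 ± 0.41), a carboxylesterase gene, also fell. Their limma adjusted p-values were 0.0194, 0.0159 and 0.0225. All 3 calls were lost without DKO/hA1 chow replicate 2, at -2.04 (limma adjusted p = 0.117), -1.67 (limma adjusted p = 0.109) and -2.15 (limma adjusted p = 0.109). Without DKO/hA1 chow replicate 1, Gsta2 (-2.29, limma adjusted p = 0.0504) and Ces2a (-1.98, limma adjusted p = 0.0841) were lost. Between genotypes, 0 of the 28 targets passed on chow, where 8 had an unadjusted p below 0.05 with differences in both directions, against 7.43% of all genes. On Western diet 0 passed, and 2 had an unadjusted p below 0.05, against 5.85% of all genes. Limma without a variance trend called 0 in both. On chow, Cyp2c54 (-1.86 ± 0.47, limma adjusted p = 0.335) lay on the lower side and Gsta1 (1.71 ± 0.48, limma adjusted p = 0.375) on the higher side.

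Of 22 genes of receptor partners and regulators, among them the PXR and CAR partner gene Rxra, the hepatocyte factor gene Hnf4a and coactivator and corepressor genes, 0 passed in any of the 7 comparisons, in limma with or without a variance trend, and 0 to 2 per comparison had an unadjusted p below 0.05, against 4.9 to 19.5% of all genes. On diet averaged over genotypes only Cebpb of the 22 had an unadjusted p below 0.05, against 19.5% of all genes, and the median difference was 0.006. Of 15 tested genes of electron transfer and haem metabolism, Blvra, the biliverdin reductase A gene, rose in DKO/hA1 mice on Western diet, from 7.34 ± 0.17 (SD, n = 2) to 12.5 ± 1.78 FPKM (n = 3), by 0.69 ± 0.15 (limma adjusted p = 0.0476), where 1.12% of all genes were called higher. Leaving out any of the libraries ended that call in 10 of 12 fits, all but those without DKO Western replicate 1 or 3, with values of 0.57 to 0.75 and limma adjusted p-values up to 0.407. Averaged over genotypes it rose by 0.45 ± 0.10 (limma adjusted p = 0.0249). That call was lost without DKO Western replicate 2 (0.44, limma adjusted p = 0.064) and without either DKO/hA1 chow library (0.44 without the first and 0.47 without the second, limma adjusted p = 0.0918 and 0.112). Limma without a variance trend did not call Blvra in DKO/hA1 mice, and averaged over genotypes it called Blvra and Hmox1, the haem oxygenase gene. No other gene of that list was called in any comparison by either fit.

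The genes nearest in profile were found as those whose log2 values over the 12 libraries, centred on their mean, had the smallest root mean square difference from a member. For Cyp3a25 these were Cyp3a59 (0.093), Gstp1 (0.247) and Gstp2 (0.268), where Cyp3a25 itself had an SD of 0.681 over the libraries. For Cyp3a11, with an SD of 2.61, they were Gsta2 (1.342), Agxt2l1 (1.345) and Gsta4 (1.421), the largest differences of the 4 genes searched. For Cyp3a44, with an SD of 0.976, they were Cyp3a41a (0.392), Cyp3a41b (0.423) and Slco1a4 (0.437). For Cyp3a16, with an SD of 0.917, they were Cyp2f2 (0.379), Cryl1 (0.384) and Bdh2 (0.392). The points are 12 libraries of 4 groups, and likeness of profile is a description only.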

How the data were processed

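Per the submitters' processing notes, TopHat 1.3.2, Bowtie 0.12.8, SAMtools 0.1.19, Cuffdiff (version not given) and build mm10 were used; the annotation is not given in the sources used here. The authors deposited 1 table of FPKM for 23284 genes, with no counts, so counting intervals are not given and limma replaced a count test. Depth is unknown here.

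From the deposited FPKM, 773 small RNA genes, 21 genes at 0 throughout 1 group and at 1 or more throughout another, and 10942 genes without 1 FPKM in 2 libraries or at 0 everywhere (5179) were set aside, leaving 11548. Scaling used trimmed means of log ratios without weights (trims of 0.3 on ratios and 0.05 on levels), 1 was added and log2 taken. limma 3.58.1 in R 4.3.3 fitted the 4 groups over 12 libraries with trended, robust variances. P-values were two-sided, adjusted by Benjamini-Hochberg over all genes, and called below 0.05. The fits were tested on simulated data. Motifs and identities were computed with Biopython 1.88.

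The genes, pathway lists and marker lists were chosen with earlier results of these data known. Named genes were the 8 genes, every other Cyp3a gene, up to 6 called genes per pathway list and comparison with the largest change, and the 3 genes nearest in profile. Labels give sample numbers within groups, and separate mice per sample are not stated for each, so p-values measure the spread between these samples. Alternatives covered scaling, filter, added value, variance model, blocks, left-out libraries and a clock covariate.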

Additional observations from a re-analysis of the deposited data

Results flagged for a closer look

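In DKO chow, the only group of 4 libraries, the lowest or highest value lay far from the rest for 2 of 12 genes tested, where chance gives about 1 in 20. Nr1i2 stood at 22.8 FPKM in replicate 2, with the other 3 libraries at 27.9 to 28.7 FPKM. Cyp3a57 stood at 1.65 FPKM in replicate 1, with the other 3 at 1.501 to 1.512 FPKM. In scaled FPKM replicates 1 to 4 stood at 1.65, 1.61, 1.51 and 1.52, so replicate 1 lay close to replicate 2. Groups of 2 or 3 libraries were not examined in this way.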

How the results depend on the processing

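None of the 8 genes was called in the 4 genotype and interaction comparisons under any alternative tried. Of 28 receptor targets, the 2 called on diet in DKO mice became 1 with no filter on low values, 1 with only the groups compared and 1 with the replicate block; the 7 called on averaged diet became 4 with the replicate block, 3 when the code number entered as a random block and 3 with the clock index as a covariate. Numbers do not pair samples (same-numbered samples correlated from -0.281 to 0.444, over 0.1 in 4 of 15 pairs), so the replicate block is no sign of a weaker effect. The 0 called between genotypes on chow became 2 with only those groups compared. Leaving out each library in turn gave 1 to 4 targets for diet in DKO, 0 (without DKO/hA1 chow replicate 2) to 4 (without DKO Western replicate 2) for diet in DKO/hA1, 3 (without DKO/hA1 chow replicate 2) to 8 for averaged diet and 0 to 2 for genotype on chow. Without the 2 libraries highest in acute phase genes, an alternative chosen after seeing the data, the counts were 4 for diet in DKO, 4 for diet in DKO/hA1 and 5 for genotype on chow.

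Among tested differences, reversals touched only those that were not called. Por between genotypes on Western diet was 0.175 with equal totals, 0.066 with the code block and 0.288 without the acute phase libraries, and -0.56 to 0.335 with each library left out. Nr1i2 averaged over diets was 0.092 with equal totals and 0.012 without the acute phase libraries (left-out range -0.12 to 0.022). The Cyp3a25 interaction was -0.003 unscaled and -0.062 without the acute phase libraries (-0.42 to 0.41). Cyp3a13 on chow was 0.062 with the code block and 0.164 with the clock covariate (-0.34 to 0.069). With that covariate Por on chow was 0.114 and the Por interaction -0.478. Left-out ranges were -0.81 to 0.021 for Cyp3a25, -0.69 to 0.19 for Nr1i3 and -0.072 to 0.21 for Nr1i2 between genotypes on Western diet. The cause of each change was not tested. Equal totals moved the median of all genes by -0.182 for diet in DKO mice and 0.159 for genotype on Western diet.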
